A study of Delphinapterus leucas with 24 samples.

Results

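The proteasome is the protease that degrades proteins tagged with ubiquitin, and its transcripts were measured in the blood of beluga whales (Delphinapterus leucas), an Arctic toothed whale. The genes were chosen by Entrez Gene ID: 37 IDs of the PSMA, PSMB, PSMC, PSMD and PSME families and PSMF1, with the immunoproteasome subunits PSMB8 and PSMB9 set aside. Of these, 24 were listed in the table, on 31 of its 45872 features, and they are 24 of the 9855 IDs that it lists. The table gives IDs and protein accessions but no gene symbols, so each symbol here is that of the human gene with that ID. A feature is a group of transcripts assembled from the reads themselves.

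Wild belugas were sampled in Bristol Bay, Alaska, and RNA from whole blood was sequenced in 24 libraries with sex and year as the variables of interest. The 2012 group held 5 males and 3 females sampled from 1 to 12 September. The 2013 group held 4 males and 4 females sampled from 23 to 30 August. The 2014 group held 6 males and 2 females sampled from 25 August to 3 September. No treatment is labelled, and the labels state neither ages nor whether an animal was sampled in more than 1 year. The p-values therefore measure the spread between these libraries.

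The proteasome consists of a barrel-shaped core particle and a cap, the regulatory particle. The core stacks 2 outer rings of alpha (PSMA) subunits, which form a gate, on 2 inner rings of beta (PSMB) subunits, some of which carry the cutting sites. The cap binds ubiquitin-tagged proteins, and its ring of ATPases (PSMC) unfolds them and feeds them through the gate, while the non-ATPase subunits (PSMD) form scaffold, ubiquitin receptors and lid. PSME1 and PSME2 form an alternative activator, and PSMF1 binds the core and was first described as an inhibitor. In blood, the ubiquitin and proteasome pathway was discovered in lysates of reticulocytes, the immature red cells that shed their organelles, and white cells use proteasomes to cut the peptides shown on MHC class I molecules.

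Coverage of the particle by the table was uneven. Of the 14 core IDs, 8 were listed, namely the alpha subunits PSMA1, PSMA2 (Entrez Gene ID 5683), PSMA3 (5684) and PSMA4 (5685) and the beta subunits PSMB3 (5691), PSMB5 (5693), PSMB6 (5694) and PSMB7. Of the 20 cap IDs, 16 were listed, namely the ATPases PSMC1, PSMC4 and PSMC6 and 13 of the 14 PSMD IDs, PSMD6 under 9861 and the others between 5707 and 5719. The 13 IDs not listed were those of PSMA5, PSMA6, PSMA7, PSMB1, PSMB2, PSMB4, PSMC2, PSMC3, PSMC5, PSMD14, PSME1, PSME2 and PSMF1. PSMD14 is the cap's deubiquitinase, and with it the activator and PSMF1 were not analysed here. A feature without an Entrez Gene ID could belong to any of them, since 14080 of the 45872 features carry an ID. All 24 listed genes passed the filter on low values, so every listed member entered the tests.

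Levels are given as scaled TPM. TPM, the relative abundance that RSEM writes, corrects for transcript length and sums to a fixed total, and each library was divided by its median ratio to the other libraries over the 42462 features above 0 in every library. In whole blood a few globin features take a large share of that total, between 2.73% and 54.4% per library, with means of 16.8% in 2012, 26.2% in 2013 and 34.2% in 2014. The scaling factor itself averaged 1.24 in 2012, 1.11 in 2013 and 0.837 in 2014. The direction of most differences between years therefore depends on the scale. Values on the deposited scale are given beside the medians of the year differences and of the globin slopes of the members. Differences of single members are on the scaled TPM, with deposited values of some of them given at the end. Sequencing depth cannot be read from TPM and is unknown, so no counting interval is given.

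Apart from PSMA3, the listed core genes were among the more abundant transcripts of the blood. PSMB5, which carries the chymotrypsin-like cutting site and is the target of the drug bortezomib, was the highest, with a mean of 136 ± 29.8 scaled TPM (SD, n = 24) and a range from 96.5 to 227. PSMB3, a beta subunit without a cutting site, averaged 127 ± 29.7 scaled TPM (SD, n = 24). PSMB7, which carries the trypsin-like site, averaged 88.7 ± 22.3 scaled TPM (SD, n = 24), and PSMB6, which carries the caspase-like site, 60.8 ± 16.8. The carriers of the 3 kinds of cutting site therefore stood in the order PSMB5, PSMB7, PSMB6. PSMB7 and PSMB6 stood further apart than PSMB5 and PSMB3, whose means differed by less than the SD of either.

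In the alpha ring, PSMA4 and PSMA1 were nearly level, at 81.7 ± 20.7 and 80.5 ± 23.4 scaled TPM (SD, n = 24 each), and PSMA2 averaged 56.0 with a range from 29.7 to 121. PSMA3 stood far below its ring partners, at 4.28 ± 1.02 scaled TPM (SD, n = 24) with a range from 2.45 to 6.31, in the 12.8th percentile of all IDs tested. Its level came from a pair of features of different assembly clusters, with means of 2.34 and 1.93 scaled TPM. In the finished particle the subunits of a ring occur in equal number. Features without an Entrez Gene ID could hold more of the PSMA3 transcript, so its level here may be incomplete.

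The cap genes were lower than the core genes at the median, 37.5 scaled TPM over 16 genes against 81.1 over the 8 core genes. The median over all 24 was 49.3 scaled TPM, and that over all 9851 IDs tested was 16.6. Among the ATPases, PSMC6 averaged 74.2 ± 18.0 and PSMC4 35.4 ± 8.99 scaled TPM (SD, n = 24 each). PSMC1 averaged 2.59 scaled TPM and ran from 1.53 to 4.42 over the 24 libraries. It was the lowest of all listed members, again far below partners with which it forms 1 ring. Here too, features without an Entrez Gene ID could hold more of the PSMC1 transcript.

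Of the non-ATPase genes, PSMD4, a ubiquitin receptor, was the highest at 63.5 ± 13.4 scaled TPM (SD, n = 24). PSMD8 and PSMD13, both lid subunits, and PSMD2, a large scaffold subunit that binds ubiquitin-carrying shuttle proteins, averaged 59.7, 58.3 and 58.9 scaled TPM. These neighbours differed by less than their SDs of 12.3, 14.4 and 12.5. The other lid subunits followed with PSMD11 at 42.5, PSMD6 at 41.9, PSMD7 at 34.6, PSMD3 at 29.8 and PSMD12 at 18.6 scaled TPM, and PSMD1, the other large scaffold subunit, stood at 28.2. PSMD9, PSMD5 and PSMD10 are chaperones of cap assembly that leave before the particle is complete. They averaged 39.7, 21.7 and 10.8 scaled TPM, and PSMD10 was the lowest of the PSMD genes, with a range from 8.70 to 18.8.

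**Figure D1:**
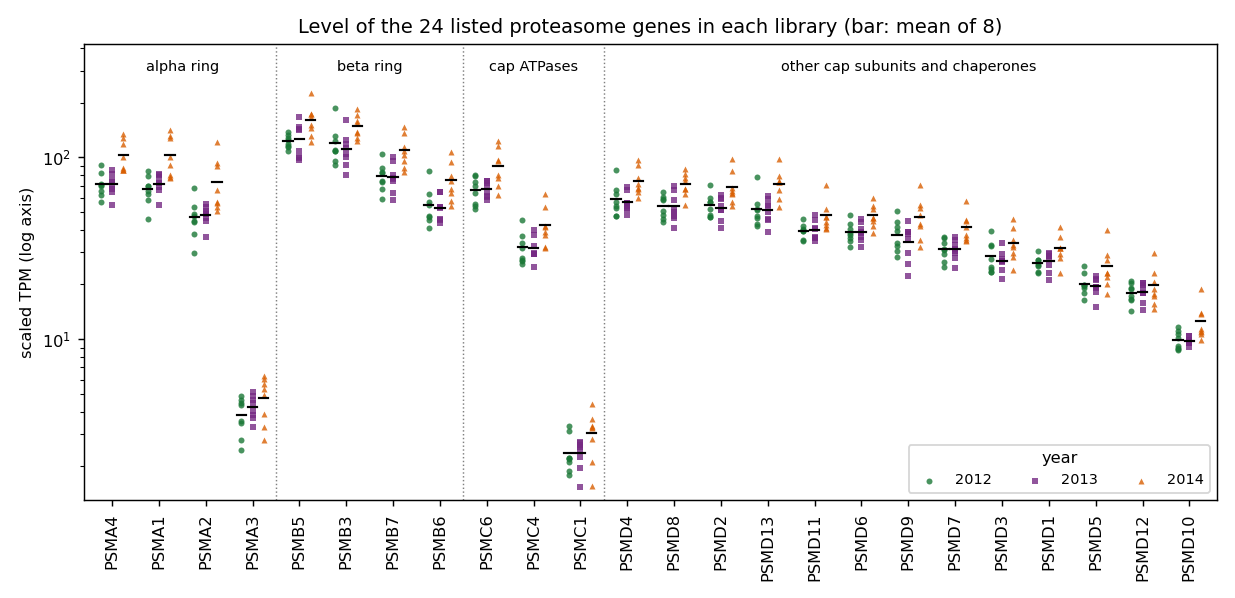
Level of the 24 listed proteasome genes in each of the 24 libraries in scaled TPM on a log axis, grouped by place in the particle and coloured by year, with a bar at the mean of the 8 libraries of a year. PSMB5 and PSMB3 stand highest, PSMA3 and PSMC1 stand at means of 4.28 and 2.59, and the 2014 mean of every gene lies above its 2012 and 2013 means on this scale, while on the deposited TPM 22 of the differences between 2014 and 2012 were negative.

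The genes moved together from library to library. The median Pearson correlation over the 276 pairs of members was 0.779 on log2 levels, against 0.180 over all pairs of IDs tested and 0.381 between members and other IDs. After the mean of each year was taken out, the median over the member pairs was 0.678, against 0.159 over all pairs, so the shared movement was also seen within years. Correlations within the core (0.775), within the cap (0.780) and between core and cap (0.774) were alike. These are descriptions over 24 libraries that share their scaling, and no p is given for them. The pairs were not matched on level, and the members stood higher at the median than all IDs.

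Single members followed the rest to different degrees. PSMB7 and PSMB6 tracked the mean of the other 23 members most closely, with correlations of 0.973 and 0.972. PSMC4, PSMD4 and PSMD2 followed with 0.960, 0.945 and 0.938. The loosest were PSMA3 with 0.192, PSMD12 with 0.410, PSMC1 with 0.541, PSMB5 with 0.624 and PSMC6 with 0.700. PSMA3 and PSMC1 were also the lowest in level, but PSMB5 was the highest. The coefficient of variation over the libraries had a median of 23.4% for the members, 25.3% for the core and 21% for the cap. Its median over all IDs tested was 20.7%. At a mean of 20 scaled TPM or more, it was 23.4% for 20 members and 18.2% for 4300 IDs. PSMA2 varied most, with 35.7%, and PSMD1 least, with 15.9%.

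The 2014 libraries were compared with those of 2012 with sex in the model. On scaled TPM, 8 of the 24 members were called higher in 2014 at an adjusted p under 0.05 and none lower, in a comparison in which 5.76% of all IDs were called 5.23% higher and 0.528% lower. At an unadjusted p under 0.05 in limma, 19 of the 24 (79.2%) differed, against 26.6% of all IDs. The 8 called were the core genes PSMA1, PSMA2, PSMA4 and PSMB7 and the cap genes PSMC6, PSMD7, PSMD8 and PSMD13. All 24 differences were positive, with a median of 0.34 on the log2 scale. The median over all IDs was 0.12, and 74.2% of them were positive. With the median ratio taken over the IDs in place of the features, 6 members were called (3.62% of all IDs). In that fit 23 of the 24 differences were positive, with a median of 0.20, against -0.0045 over all IDs (49% positive). On the deposited TPM no member was called (11.3% of all IDs were), 22 of the 24 differences were negative and their median was -0.20, against -0.38 over all IDs. Over all IDs the calls split into 515 higher and 52 lower on the scaled TPM, and into 25 higher and 1087 lower on the deposited TPM. In bulk blood, fewer cells of a type and less RNA per cell cannot be told apart.

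In the alpha ring, PSMA1 lay between 77.2 and 141 scaled TPM in 2014 with a median of 95.4, against 45.7 to 83.9 in 2012 with a median of 67.2. Of the 8 libraries of 2014, 5 were above the highest of 2012. Its difference was 0.61 ± 0.14 (SE, log2) with an adjusted p of 0.0262 in limma.

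PSMA2 lay between 51.0 and 121 scaled TPM in 2014 with a median of 61.5, against 29.7 to 68.1 in 2012 with a median of 46.1. Only 3 of the 2014 libraries stood above the highest of 2012, although all 8 stood above the 2012 median. Its difference of 0.61 ± 0.16 (SE, log2) was the same as that of PSMA1 to 2 decimals, with a wider error (adjusted p = 0.0342, limma).

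PSMA4 lay between 84.7 and 134 scaled TPM in 2014 with a median of 93.8, against 56.7 to 90.8 in 2012 with a median of 70.2. The lowest libraries of 2014 thus overlapped the highest of 2012, with 4 of 8 above it, and the difference was 0.52 ± 0.12 (SE, log2; adjusted p = 0.0274, limma). With only the higher of its features taken, it was 0.90 ± 0.43 and was not called (adjusted p = 0.191). PSMA3, the low member of the ring, ran from 2.78 to 6.31 in 2014 with a median of 5.13, against 2.45 to 4.87 scaled TPM in 2012 with a median of 3.95. Its difference of 0.25 ± 0.14 (SE, log2) was not called (adjusted p = 0.259, limma).

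In the beta ring, PSMB7 lay between 83.5 and 147 scaled TPM in 2014 with a median of 106, against 58.7 to 105 in 2012 with a median of 78.0. It was the only beta subunit called, with a difference of 0.46 ± 0.13 (SE, log2; adjusted p = 0.0408, limma). PSMB6 ran from 54.2 to 107 scaled TPM in 2014 with a median of 70.7, against 40.7 to 83.7 in 2012 with a median of 51.1. Its difference of 0.44 ± 0.14 (SE, log2) missed the threshold at an adjusted p of 0.0632 in limma. PSMB5 ran from 122 to 227 scaled TPM in 2014 with a median of 158, against 108 to 137 in 2012 with a median of 122. With 6 of 8 libraries above the highest of 2012 it showed, with PSMD8, the most such libraries of all members, yet its difference of 0.35 ± 0.12 (SE, log2) was not called (adjusted p = 0.0736, limma). PSMB3 was not called either (difference 0.34 ± 0.14, SE, log2; adjusted p = 0.121, limma), and none of its 2014 libraries stood above the highest of 2012, which reached 187 scaled TPM.

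In the cap's ATPase ring, PSMC6 lay between 61.7 and 123 scaled TPM in 2014 with a median of 88.1, against 52.0 to 80.2 in 2012 with a median of 66.4. Its difference was 0.44 ± 0.13 (SE, log2; adjusted p = 0.0432, limma), and 5 of the 8 libraries of 2014 were above the highest of 2012. With only the higher of its features taken it was not called (0.43 ± 0.13, SE, log2; adjusted p = 0.0547, limma). PSMC4 (0.39 ± 0.13, SE, log2) and PSMC1 (0.25 ± 0.14) were not called, with adjusted p-values of 0.0738 and 0.250 in limma. PSMC1 ran from 1.55 to 4.42 scaled TPM in 2014 with a median of 3.26, against 1.80 to 3.34 in 2012 with a median of 2.21, so that the lowest library of both years was one of 2014.

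In the lid, PSMD13 lay between 53.4 and 97.6 scaled TPM in 2014 with a median of 73.0, against 42.2 to 78.5 in 2012 with a median of 49.3, and its difference was 0.46 ± 0.13 (SE, log2; adjusted p = 0.0371, limma). The 78.5 was male 2012 replicate 1, and the other 7 libraries of 2012 reached no higher than 55.5. PSMD7, the partner of the unlisted deubiquitinase PSMD14, lay between 34.5 and 57.4 scaled TPM in 2014 with a median of 39.5, against 24.9 to 36.5 in 2012 with a median of 31.1. Of its 2014 libraries 5 were above the highest of 2012, and the difference was 0.40 ± 0.11 (SE, log2; adjusted p = 0.0346, limma). PSMD8 lay between 54.4 and 86.0 scaled TPM in 2014 with a median of 70.9, against 44.0 to 64.3 in 2012 with a median of 54.7. Its difference was also 0.40 ± 0.12 (SE, log2; adjusted p = 0.0427, limma), and here 6 of the 8 libraries of 2014 stood above the highest of 2012.

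The remaining cap genes were not called. PSMD4, the ubiquitin receptor, ran from 59.5 to 97.0 scaled TPM in 2014 with a median of 69.9, against 47.4 to 85.4 in 2012 with a median of 55.4 (difference 0.34 ± 0.12, SE, log2; adjusted p = 0.0781, limma). The assembly chaperone PSMD10 ran from 9.92 to 18.8 in 2014 with a median of 11.2, against 8.70 to 11.7 scaled TPM in 2012 with a median of 9.69 (difference 0.30 ± 0.10, SE, log2; adjusted p = 0.0674, limma). PSMD1 ran from 23.1 to 41.2 in 2014 with a median of 31.7, against 23.3 to 30.6 scaled TPM in 2012 with a median of 26.0 (difference 0.26 ± 0.10, SE, log2; adjusted p = 0.0951, limma). PSMD12 showed the smallest difference of all members, 0.12 ± 0.11 (SE, log2; adjusted p = 0.517, limma), near the median of all IDs, with medians of 18.3 scaled TPM in 2014 and 18.1 in 2012. In no member did all 8 libraries of 2014 stand above all 8 of 2012.

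**Figure D2:**
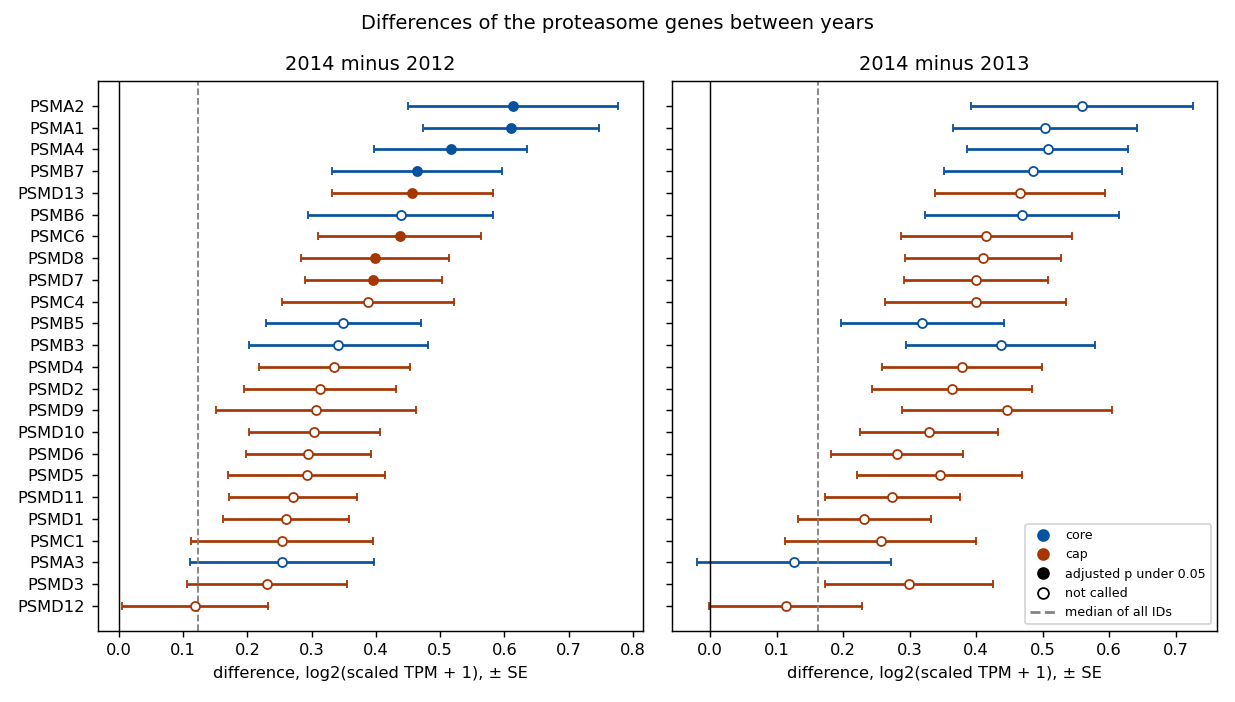
Difference of each member between 2014 and 2012 (left) and between 2014 and 2013 (right) on the log2(scaled TPM + 1) scale, with its SE, filled where the adjusted p was under 0.05. All 24 differences are positive in both panels on this scale and 23 (left) and 22 (right) of them lie above the dashed median of all IDs, while on the deposited TPM 22 differences between 2014 and 2012 were negative.

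The calls between 2014 and 2012 rested on single libraries. No member was called without male 2012 replicate 2 or 5, without female 2014 replicate 1, or without male 2014 replicate 1, 3 or 4. In these 6 fits few IDs of any kind were called, between 0 and 40 of 9851, and all 24 member differences stayed positive with medians from 0.27 to 0.35. Only PSMA1 was called without female 2012 replicate 1 or male 2012 replicate 4, and only PSMA1 and PSMA4 without female 2012 replicate 3. In the other direction, 14 were called without male 2014 replicate 6 (9.59% of all IDs), 15 without male 2012 replicate 1 (15.9%) and 16 without female 2014 replicate 2 (13.1%). PSMC6 was also not called without female 2013 replicate 1, PSMC6 and PSMD8 without male 2013 replicate 4, and PSMD8 without male 2014 replicate 2 or 5. Without the 2 libraries over 50% globin, male 2012 replicate 1 and female 2014 replicate 1, 7 members were called (4.91% of all IDs).

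No member was called with the day of the year or the globin share as a covariate or in the male libraries alone, and no other of the 9851 IDs was called in these fits. All 24 differences stayed positive with the globin share as a covariate, with a median of 0.25 against 0.068 over all IDs, and in males, with 0.30 against 0.11. With the day of the year as a covariate, the median difference of the members was 0.13, against -0.00086 over all IDs, with 20 of 24 positive, and the sampling dates of 2014 and 2012 overlapped only in the first days of September. The median difference of the members lay above that of all IDs on each scale. The distance was 0.22 on the scaled TPM, 0.18 on the deposited TPM, 0.19 after quantile normalisation and 0.20 with globin left out. The scaled, deposited and globin-free values differ by a factor per library, which shifts members and all IDs nearly alike. The likeness of the distances on these scales was therefore largely fixed in advance.

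Sums of blood cell markers differed among the years as well. Of the 8 IDs of a neutrophil list, 5 were listed, most of their sum came from S100A8 and S100A9, and 1 of them, P2RX7, is not specific to neutrophils. The sum ranged from 3161 to 5509 scaled TPM in 2012, from 2943 to 8110.0 in 2013 and from 4714 to 10256 in 2014. Its other genes differed less: CSF3R averaged 292 scaled TPM in 2014 and 275 in 2012, CXCR2 236.3 in 2014 and 245.5 in 2012, and P2RX7 28.2 in 2014 and 31.8 in 2012. Of the 9 erythroid IDs, 6 were listed, with a sum from 45.1 to 2328 scaled TPM in 2012, 158 to 1585 in 2013 and 669 to 3718 in 2014. In both sums the years overlapped.

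All 4 monocyte IDs were listed, with a sum from 397 to 863 scaled TPM in 2012, 311 to 884 in 2013 and 516 to 1265 in 2014. The 7 T cell IDs, all listed, gave sums from 629 to 1150.1 in 2012, 597 to 1071 in 2013 and 734 to 1084 in 2014. The 4 listed of 5 B cell IDs gave 130.4 to 312, 115 to 262 and 110 to 404 in the same years, and the 4 listed of 6 platelet IDs gave 34.2 to 88.1, 39.0 to 129.9 and 37.4 to 153. Of the defining markers, the erythroid EPB42 was listed at 0 in 2 libraries, and the IDs not listed included those of MPO, ELANE, FPR1, CA1, KLF1, PPBP and GP1BA. On the scaled TPM all 6 marker sums were highest on average in 2014, the year in which the members stood highest on that scale. There, 74.2% of all IDs were higher in 2014 than in 2012. The marker sums were not compared on the deposited TPM. The part of these cell types in the year differences of the members was not tested.

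The 2014 libraries were also compared with those of 2013, which were sampled at nearly the same season. This comparison shares the 2014 libraries with the one before. No member and no other ID was called (0.0% of all IDs). At an unadjusted p under 0.05 in limma, 21 of the 24 members (87.5%) differed, all higher in 2014 on the scaled TPM, against 29.7% of all IDs. The median difference was 0.39 on the log2 scale, against 0.16 over all IDs, and on the deposited TPM it was -0.03, against -0.23.

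The largest differences between 2014 and 2013 were again those of the alpha ring. PSMA2 differed by 0.56 ± 0.17 (SE, log2; adjusted p = 0.0648, limma), PSMA4 by 0.51 ± 0.12 (adjusted p = 0.0619) and PSMA1 by 0.50 ± 0.14 (adjusted p = 0.0648). PSMA4, whose adjusted p was the smallest of the members, lay between 84.7 and 134 scaled TPM in 2014 with a median of 93.8, against 54.5 to 85.2 in 2013 with a median of 71.2, so the ranges overlapped only at their edges. PSMD10 had the most 2014 libraries above the highest of 2013, 7 of 8. The 3 members with an unadjusted p over 0.05 were PSMA3, PSMC1 and PSMD12, with differences of 0.13, 0.26 and 0.11.

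The number of calls also depended on single libraries and on the model. With each library left out in turn, between 0 and 20 members were called: 20 without female 2014 replicate 2 (13.7% of all IDs), 14 without female 2013 replicate 2 (10.9%) or male 2012 replicate 1 (8.84%), 13 without male 2014 replicate 6 (7.12%), 6 without male 2013 replicate 1 (3.86%), 5 without male 2014 replicate 2 (3.05%), and none otherwise, where at most 1 ID of any kind was called. With the day of the year as a covariate 19 were called, where 20.5% of all IDs were, and with library weights 16, where 15.0% of all IDs were.

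Between 2013 and 2012 the members were nearly level on the scaled TPM. No member was called (0.0% of all IDs), none had an unadjusted p under 0.05 in limma (1.69% of all IDs did), and the median difference was -0.0066 on the log2 scale, against -0.032 over all IDs. On the deposited TPM the median was -0.12, against -0.14 over all IDs, with 23 of 24 negative. With the day of the year as a covariate it was -0.35, against -0.18, with 22 of 24 negative and 5 at an unadjusted p under 0.05, none called. PSMA4 had a mean of 71.2 ± 9.63 scaled TPM in 2013 and of 71.0 ± 10.9 in 2012 (SD, n = 8 each). PSMB7 had 78.0 ± 14.2 in 2013 and 78.8 ± 13.9 scaled TPM in 2012 (SD, n = 8 each). The sexes were compared with year in the model, and no member was called (0.132% of all IDs) or had an unadjusted p under 0.05 (3.44% of all IDs did). When the sampling date replaced the year in the model, no member was called either (9 of 9851 IDs were), and the median difference was -0.07, against -0.04 over all IDs. The largest difference between males and females was that of PSMB5, at 0.17 ± 0.10 (SE, log2; adjusted p = 1.00, limma), with means of 145 ± 32.9 scaled TPM in males (SD, n = 15) and 122 ± 17.2 in females (SD, n = 9).

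The balance of core and cap was described by the ratio of the summed levels of the 8 core genes to that of the 16 cap genes. The cap sum includes the assembly chaperones PSMD5, PSMD9 and PSMD10, which are not part of the finished cap. A ratio without them was not computed. The summed core was 564 ± 96.0 scaled TPM in 2012, 563 ± 85.3 in 2013 and 778 ± 134 in 2014, and the summed cap was 569.9 ± 74.3, 561 ± 58.4 and 729.7 ± 135 in the same years (SD, n = 8 each). The ratio averaged 0.986 ± 0.0653 in 2012, 1.00 ± 0.0861 in 2013 and 1.07 ± 0.0589 in 2014 (SD, n = 8 each). It ran from 0.977 to 1.16 in 2014 with a median of 1.07, against 0.880 to 1.08 in 2012 with a median of 0.993, and the years overlapped. On the log2 scale the ratio differed by 0.12 between 2014 and 2012 and by 0.10 between 2014 and 2013. Both were close to the SD of 0.11 over all libraries, and 2013 and 2012 differed by 0.02. These differences took no account of sex. The ratio averaged 1.03 ± 0.0759 in males (SD, n = 15) and 0.992 ± 0.0758 in females (SD, n = 9). Because a scale factor of the library cancels in it, the ratio is the same on the deposited TPM.

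The ratio rests on which genes were listed, and no p is given for it, as it is a sum over chosen members. With the highest member of each part left out the log2 ratio differed by 0.15 between 2014 and 2012, with PSMB5 alone left out by 0.14, and with the mean of log2 levels in place of sums by 0.14. With each library left out in turn it stayed between 0.09 and 0.13. In the same comparison the median single-gene difference was 0.45 for the core and 0.31 for the cap on the scaled TPM, and -0.09 and -0.22 on the deposited TPM.

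**Figure D3:**
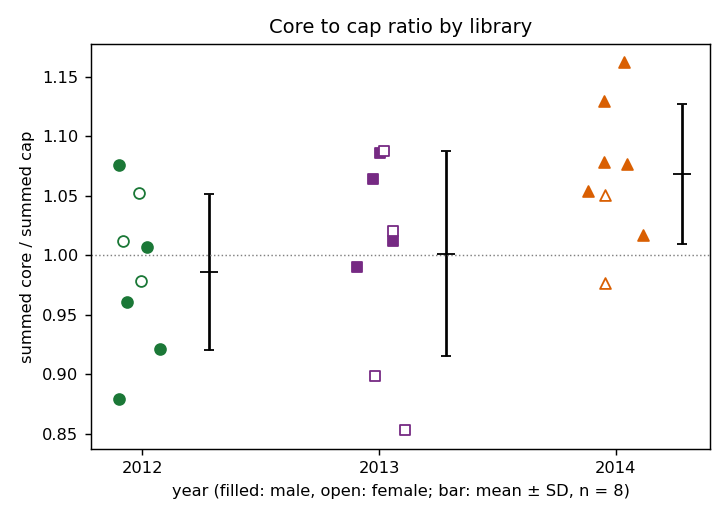
Ratio of the summed core level (8 genes) to the summed cap level (16 genes, PSMD5, PSMD9 and PSMD10 included) in each library by year. Points are filled for males and open for females, with the mean and SD of the 8 libraries beside them. The means are 0.986, 1.00 and 1.07 in 2012, 2013 and 2014, and the ranges of the years overlap.

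The relation of the members to the globin share depended on the scale. On the scaled TPM, in a model with year and sex, no member had a called slope (0.761% of all IDs did), nor with library weights (0.538% of all IDs). At an unadjusted p under 0.05 in limma there were 3 members, where 9.38% of all IDs were. Of the 24 slopes 21 were positive, and their median was 0.068 log2 units per doubling of the share, against 0.036 over all IDs. On the deposited TPM all 24 members were called lower with a rising share, as were most IDs (93.0% called). The median slope there was -0.30, against -0.31 over all IDs. TPM sums to a fixed total, so on this scale a larger globin share leaves less of it for the other IDs.

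The steepest slopes on the scaled TPM were those of PSMD13 at 0.16 ± 0.050, PSMA2 at 0.16 ± 0.071, PSMB6 at 0.13 ± 0.062 and PSMA1 at 0.11 ± 0.060 (SE, log2 per doubling), with adjusted p-values of 0.176, 0.481, 0.506 and 0.583 in limma. At the other end were PSMA3 at -0.069 ± 0.067, PSMB5 at -0.031 ± 0.057, PSMD12 at -0.0029 ± 0.054 and PSMD1 at 0.014 ± 0.046. The slope of PSMD1 turned negative under quantile normalisation, with the globin features left out and with scaling over the IDs. The median slope of the members was 0.095 within 2012, -0.0059 within 2013 and 0.12 within 2014. A limma F test of slopes that differ among years called no ID and gave no member an unadjusted p under 0.05. The lowest adjusted p of a member in it was 0.775. Without male 2012 replicate 1 and female 2014 replicate 1, the libraries with over 50% of TPM in globin, the median slope was 0.012, against 0.0061 over all IDs.

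Without a model, PSMD13 was the only member whose level was called as correlated with the log2 globin share over the 24 libraries, where 1.44% of all IDs were called. Its Pearson r was 0.645 (permutation p = 0.00062, adjusted p = 0.0457) and its Spearman rho was 0.686 (permutation p = 0.00029, adjusted p = 0.0246), both two-sided. Without the 2 libraries farthest from the median share its r was 0.670, and within 2012, 2013 and 2014 it was 0.715, 0.617 and 0.287. These permutations did not keep libraries within their year, and PSMD13 and the globin share both averaged highest in 2014. The median r of the members was 0.431, against 0.212 over all IDs. The medians within 2012, 2013 and 2014 were 0.513, -0.0692 and 0.253, so the median relation over all libraries was not seen within 2013.

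**Figure D4:**
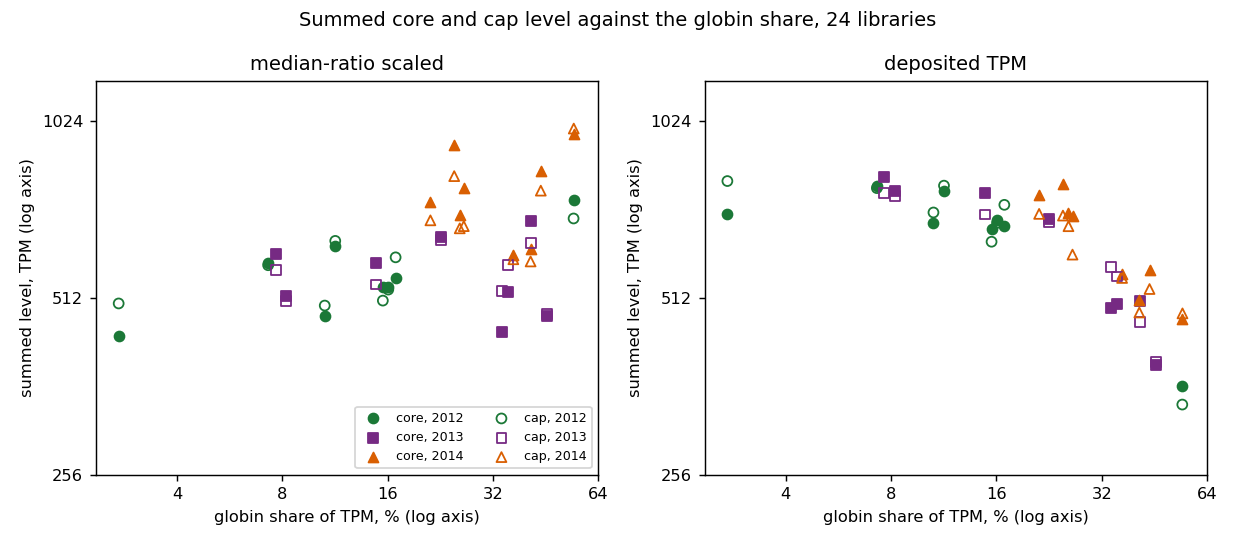
Summed core (filled) and cap (open) level of each library against its globin share, both on log axes, as scaled TPM (left) and as deposited TPM (right), coloured by year. The cloud tilts upward on the scaled and downward on the deposited values, and the same libraries stand at the ends of both panels.

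The members were set against the summed neutrophil list over the 24 libraries, a relation chosen after the data had been seen. PSMB5, PSMD8 and PSMD13 were called, all positive, where 6.39% of all IDs were called. PSMB5 had a Pearson r of 0.817 (permutation p = 1e-05, the smallest the permutations can give, adjusted p = 0.00352) and a Spearman rho of 0.732 (permutation p = 5e-05, adjusted p = 0.00912). Its r was 0.744 without the 2 libraries farthest from the median, and 0.157, 0.781 and 0.756 within 2012, 2013 and 2014. PSMD8 and PSMD13 had an r of 0.604 and 0.598 (adjusted p = 0.0395 and 0.0422, permutation test), but within years only 0.119 to 0.436 for PSMD8 and 0.0266 to 0.452 for PSMD13. Over the 24 libraries the median r of the members was 0.402, against 0.194 over all IDs. PSMD12 was the only member with a negative r there, at -0.0819. Within 2014, r ran from -0.507 for PSMD10 to 0.756 for PSMB5. Only PSMA3, PSMB5, PSMD8 and PSMD13 had a positive r within that year. The permutations did not keep libraries within their year. Of the members above 20 scaled TPM, PSMB5 thus followed the other members least and the summed neutrophil list most over the 24 libraries. PSMD12, with a mean of 18.6 scaled TPM, followed the other members less. Most of the neutrophil sum came from S100A8 and S100A9, and relations to its single genes were not tested. The sum averaged 6268 ± 2167 scaled TPM in males (SD, n = 15) and 4107 ± 1036 in females (SD, n = 9). The correlations took no account of sex.

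PSMA4 showed a pattern of its own at the level of features. Its ID stood on a pair of features of 1 assembly cluster, TR22941|c0_g1 and TR22941|c0_g2, with the same protein accession, and their sum was used in the tests. Their means were 27.6 and 54.1 scaled TPM, and their log2 levels were negatively correlated, with an r of -0.608. The share of TR22941|c0_g1 in the sum fell into 3 separate bands. It was 8.86% to 14.4% in 9 libraries, 40.8% to 48.3% in 13 libraries and 84.1% to 89.4% in 2 libraries, male 2012 replicate 5 and female 2013 replicate 4.

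The low band held 3, 2 and 4 libraries of 2012, 2013 and 2014 and the middle band 4, 5 and 4. By sex, the low band held 4 males and 5 females, the middle band 10 males and 3 females and the high band 1 of each. The sum ran from 65.3 to 134 scaled TPM in the low band with a median of 81.8, from 61.7 to 99.9 in the middle band with a median of 80.7, and was 54.5 and 56.7 in the 2 libraries of the high band. A correlation under -0.5 between features of 1 ID and 1 cluster was seen in 7.64% of the 471 such pairs with means of 5 scaled TPM or more. Of the other members with a pair of features, PSMC6 had the closest pair (r = 0.862, shares near equal), and PSMA1, PSMA3 and PSMD9 had positive correlations of 0.535, 0.460 and 0.409. The minor features of PSMB7 and PSMD4 held 2.30% and 5.74% of the sum on average, with weak correlations of -0.129 and -0.184.

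**Figure D5:**
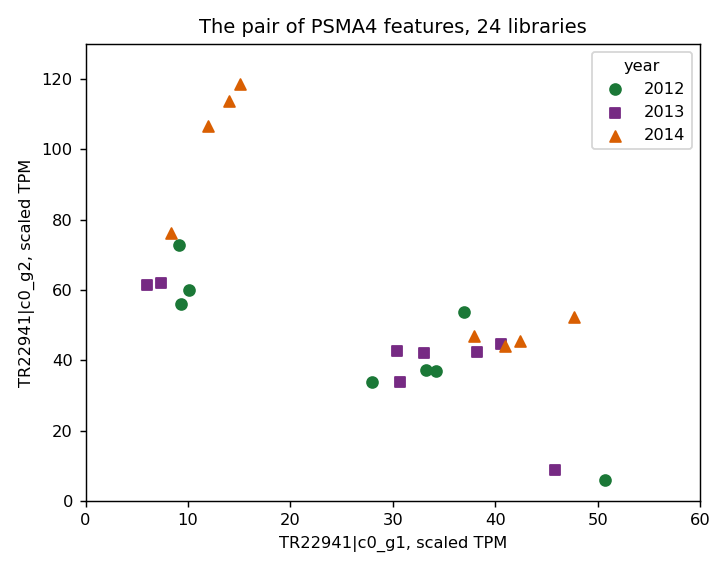
Scaled TPM of the pair of PSMA4 features in the 24 libraries, coloured by year. The points fall into 3 groups, at shares of TR22941|c0_g1 of 8.86% to 14.4%, 40.8% to 48.3% and 84.1% to 89.4%, and libraries of each year occur in the first and second.

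Of 24 further genes of the pathway, 18 were listed, and 6 of them were called higher in 2014 than in 2012 on the scaled TPM, none lower (5.76% of all IDs called). On the deposited TPM none was called and 1 of the 18 differences was positive. None was called without male 2012 replicate 2 or 5, female 2014 replicate 1 or male 2014 replicate 1. The same held with the day of the year or the globin share as a covariate and in males alone. These fits called at most 28 of the 9851 IDs. Without male 2012 replicate 1, 11 of the 18 were called (15.9% of all IDs). The median difference of the 18 in the main fit was 0.31 on the log2 scale, against 0.34 for the members and 0.12 for all IDs.

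Among the assembly chaperones, POMP, which guides the maturation of the core, lay between 15.2 and 30.5 scaled TPM in 2014 with a median of 18.9, against 8.82 to 15.9 in 2012 with a median of 13.3. Its difference was 0.60 ± 0.15 (SE, log2; adjusted p = 0.0293, limma). PSMG1 and PSMG2, the pair that starts the alpha ring, differed by 0.48 ± 0.13 and 0.40 ± 0.12 (SE, log2; adjusted p = 0.0397 and 0.0433, limma). PSMG4 and PAAF1 were not called, at 0.20 and 0.12. Both deubiquitinases that dock on the cap were called, USP14 at 0.47 ± 0.12 and UCHL5 at 0.32 ± 0.09 (SE, log2; adjusted p = 0.0305 and 0.0419, limma).

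PSME4 is an activator that binds the core in place of the cap. It ran from 26.2 to 42.7 scaled TPM in 2014 with a median of 31.4. In 2012 it ran from 21.3 to 25.8 with a median of 23.6. Its difference was 0.44 ± 0.09 (SE, log2; adjusted p = 0.0207, limma). The immunoproteasome subunits PSMB9 and PSMB10, which replace PSMB6 and PSMB7 in cells under interferon, had means of 63.1 and 79.6 scaled TPM over all libraries. They lay beside the 60.8 of PSMB6 and the 88.7 of PSMB7, and were not called (0.31 ± 0.12 and 0.37 ± 0.14, SE, log2; adjusted p = 0.0944 and 0.102, limma). NFE2L1, a transcription factor that drives proteasome genes when proteasomes are inhibited, had a difference of -0.01 ± 0.10 (SE, log2; adjusted p = 0.939, limma) and ran from 35.1 to 56.5 scaled TPM in 2014, against 39.0 to 54.4 in 2012. The ubiquitin receptor ADRM1, the lid subunit SEM1 and the shuttle proteins UBQLN1 and RAD23B were not called, at 0.10, 0.41, 0.12 and 0.23, nor were ECPAS, which binds proteasomes, at 0.21 and NGLY1, which processes NFE2L1, at 0.30.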

How the data were processed

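The deposited values were TPM per assembled feature in 24 libraries; the authors assembled the transcriptome de novo, per the series' design text, and RSEM 1.2.21, Bowtie2 and Trimmomatic are named in the submitters' processing notes. The libraries were strand-directional and the RNA came from whole blood stabilised in PAXgene tubes, per the labels' protocols. TPM of features sharing an Entrez Gene ID was summed and divided by median-ratio factors. IDs at 1 scaled TPM or more in at least 8 libraries (9851 of 9855) were tested as log2(value + 1), which understates changes of low genes, with limma 3.58.1 in R 4.3.3 (trend and robust), year and sex in the model, and Benjamini-Hochberg adjustment over all IDs. The globin slope added the log2 globin share. Correlations used 100000 two-sided permutations (Python 3.11.15), adjusted over all IDs. Fits were tested on simulated data. Named members were the highest and lowest of each class, those called, and the 4 highest and 4 lowest slopes, and all others are given in ranges or briefly. The members and lists were chosen with earlier results of these data known. Replicate numbers follow accession order and pair no libraries. One Entrez Gene ID cell that was not a number was left out. Some single genes of the lists are not reported here.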

Additional observations from a re-analysis of the deposited data

Results flagged for a closer look

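Each member, the globin share, the summed core and cap levels and their ratio were checked for a library far from the other libraries of its year, in groups of 8. PSMD11, a lid subunit, stood at 70.5 scaled TPM in female 2014 replicate 1, against 40.4 to 52.1 in the other 2014 libraries. PSMD13, also a lid subunit, stood at 78.5 scaled TPM in male 2012 replicate 1, against 42.2 to 55.5 in the other 2012 libraries. These were the libraries with 54.4% of their TPM in globin. Of 84 groups tested over these measures and the 3 years, 2 were picked out in this way, and chance picks out about 1 in 20.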

How the results depend on the processing

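The 8 calls between 2014 and 2012 became 0 on the deposited TPM (11.3% of all IDs called) and, where no ID at all was called, with the day of the year or the globin share as a covariate and in males alone. They became 6 with scaling over the IDs (3.62%), 2 with quantile normalisation (2.88%) or with globin left out (0.904%) and 15 with library weights (13.2%). With each library left out they ranged from 0 to 16 (0.0% to 15.9%). The 0 calls between 2014 and 2013 became 19 with the day of the year (20.5%) and 16 with library weights (15.0%). They ranged from 0 to 20 with each library left out (0.0% to 13.7%). The 0 calls of the globin slope became 24 on the deposited TPM (93.0% of all IDs) and 2 with the globin share alone (2.45%). On the deposited TPM a larger globin share leaves less of the fixed total for the other IDs. Apart from this, the cause of the changes was not tested. On the deposited TPM these differences between 2014 and 2012 turned negative: PSMA3 -0.22, PSMA4 -0.025, PSMB5 -0.19, PSMB6 -0.10, PSMB7 -0.078, PSMC1 -0.15, PSMC6 -0.10, PSMD4 -0.20, PSMD7 -0.14, PSMD8 -0.14, PSMD10 -0.21 and PSMD13 -0.082. That of PSMB6 was -0.063 with the day of the year. Globin slopes on the deposited TPM were -0.26 for PSMA1, -0.21 for PSMA2, -0.24 for PSMB6, -0.35 for PSMD1 and -0.21 for PSMD13. Slopes near 0 changed sign. PSMA1 had -0.010 and PSMA2 -0.0040 within 2013. With the globin share alone PSMA3 had 0.0091, PSMB5 0.036 and PSMD12 0.028. PSMB5 had 0.026 and PSMD12 0.013 within 2012, and PSMD12 had 0.39 within 2014 and 0.010 with library weights. PSMD1 had -0.029 with quantile normalisation, -0.083 with globin left out, -0.018 in males, -0.0046 without the libraries over 50% globin and -0.025 with scaling over the IDs. With each library left out, slopes ran from -0.072 to 0.0039 for PSMB5, from -0.0095 to 0.045 for PSMD1 and from -0.017 to 0.013 for PSMD12. The pseudocount of 0.1, filters of 0 or 5 scaled TPM, limma without trend and year without sex kept the same 8 genes called, and with the highest feature per ID 6 of them were, without PSMA4 and PSMC6. Chosen after seeing the data were scaling over the IDs, leaving out the libraries over 50% globin, the slopes within years, the marker correlation, the sampling date as a block and the PSMA4 features. No paired analysis was possible because the replicate numbers follow accession order; the sexes shared 7 of 15 sampling dates, and with the date as a block no member was called between them.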
